A study of Arabidopsis thaliana with 8 samples.

Results

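The transcripts described here are those of 171 probes, of 3439 on a DNA array. Their signal was lower by at least 2.5 times in Arabidopsis thaliana plants at 1% CO2 than at normal CO2. They are called low-level because their mean signal lay below a ceiling, one that 77.1% of all probes met. The probes were taken by a rule on the deposited intensities, a measure of hybridised RNA in units whose scaling the sources used here do not give. The mean over the 8 arrays had to be below 0.68, the mean of the normal CO2 arrays at least 0.1 and at least 2.5 times the mean of the high CO2 arrays, and the highest high CO2 value below the lowest normal CO2 value. All plants were wild type of ecotype Columbia 0, which is widely used as the reference strain. The 4 arrays at normal CO2 carry day 0 in their titles, and the 4 arrays at high CO2 were made after 10 days in 1% CO2 by volume. The labels give neither the organ nor the age at harvest and do not say whether arrays of a group came from separate plants, so CO2 and the days that passed cannot be told apart, and spread between arrays may be technical.

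In leaves of C3 plants such as Arabidopsis, Rubisco fixes CO2 but also binds oxygen, and photorespiration recovers carbon from the product of that side reaction. Air rich in CO2 suppresses the side reaction and is a standard way to grow photorespiratory mutants. Most proteins of the chloroplast are encoded in the nucleus, so that a change in growth conditions can reach the plastid through transcripts of the kind measured on such arrays.

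The rule used the contrast between the groups on all 8 arrays, so the levels of the members at both CO2 levels are a description and no test is attached to them. Of the 3439 probes, 2651 (77.1%) had a mean below 0.68, 1944 of these had a normal CO2 mean of at least 0.1, 200 of these met the ratio, and 171 also showed no overlap between the groups. In the whole series 759 probes (22.1%) had every high CO2 value below every normal CO2 value. At the edges of the rule, the member of lowest ratio stood at 2.51 and the nearest probe outside at 2.4997, and the member of highest mean over the arrays stood at 0.671 and the nearest probe outside at 0.687. The lowest normal CO2 mean among the members was 0.101 against 0.0905 just outside. The member with the narrowest gap had a lowest normal CO2 value of 0.1143 and a highest high CO2 value of 0.1137, and the nearest excluded probe had 0.0981 and 0.0997.

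"Low-level" describes the members at high CO2 better than at normal CO2. Over the 171 members the median of the normal CO2 means was 0.305, from 0.101 to 1.08, close to the median of 0.267 over all probes, and 104 members lay above that median. Their high CO2 means had a median of 0.0939, from 0.00021 to 0.361, and 8 members lay above the median of all probes, 0.263. On the single arrays the median percentile of the members among all probes was 53.7 to 55.7 at normal CO2 and 17.5 to 23.3 at high CO2. The members thus ranked near the middle of the array at normal CO2 and among its dimmer probes at high CO2. The level limits and the ratio of the rule constrain both ranks, so the ranks only describe what was chosen.

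**Figure D1:**
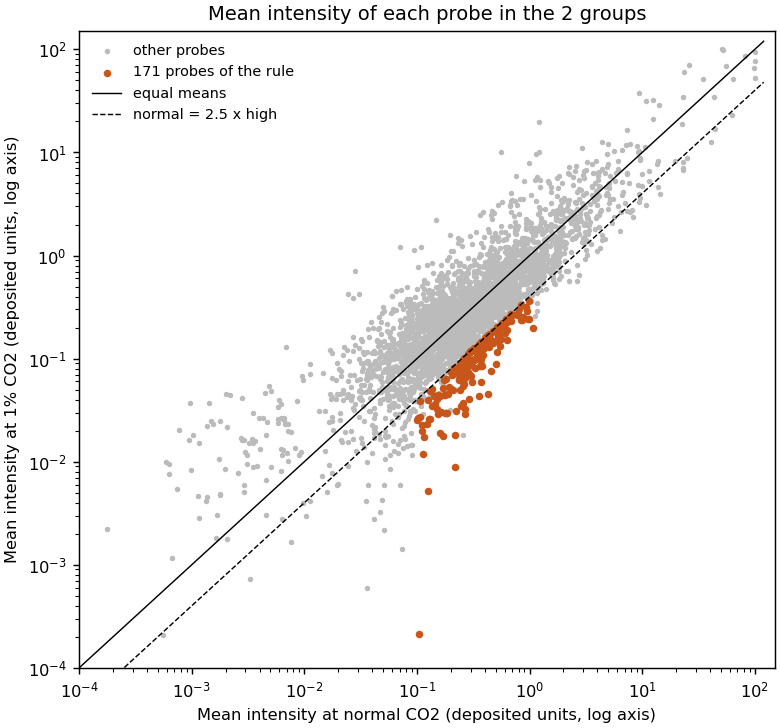
Mean intensity at normal CO2 (x axis) and at 1% CO2 (y axis) of the 3365 probes with both means above 0, in deposited units on log axes. The 171 members (orange) lie below the dashed line where the normal mean is 2.5 times the high mean, around the middle of the x axis, with a median normal CO2 mean of 0.305.

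Summed over the members, intensity took 1.85%, 1.89%, 1.85% and 1.87% of the array total on the normal CO2 arrays 1 to 4, and 0.534%, 0.496%, 0.554% and 0.623% on the high CO2 arrays. The 4 normal CO2 arrays were nearly alike, at 1.87% ± 0.0217 (SD, n = 4), and the high CO2 arrays stood at 0.552% ± 0.0530 (SD, n = 4), with array 4 the highest. The ratio of the group means had a median of 3.30 over the members. It lay below 3 in 68 members, from 3 to 4 in 54, from 4 to 8 in 38 and above 8 in 11.

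Many members were listed at exactly 0 at high CO2, a value that the sources used here do not explain. No member can be at 0 at normal CO2 by the rule. At high CO2, 59 members (34.5%) were at 0 on at least 1 array: 37 on 1 array, 17 on 2 and 5 on 3. The 4 high CO2 arrays had 22, 17, 23 and 24 members at 0. Over all probes zeros were also more frequent at high CO2, with 218 to 253 probes per array against 133 to 154 at normal CO2. Among the 1944 probes of the same level criteria 140 (7.20%) were at 0 on at least 1 high CO2 array, the members included. The rule favours low values at high CO2, so nothing is read from this difference. The high CO2 mean of 27 members lay below 0.0363, the 5th percentile of all values above 0, and for these a ratio has little meaning beyond the direction.

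**Figure D2:**
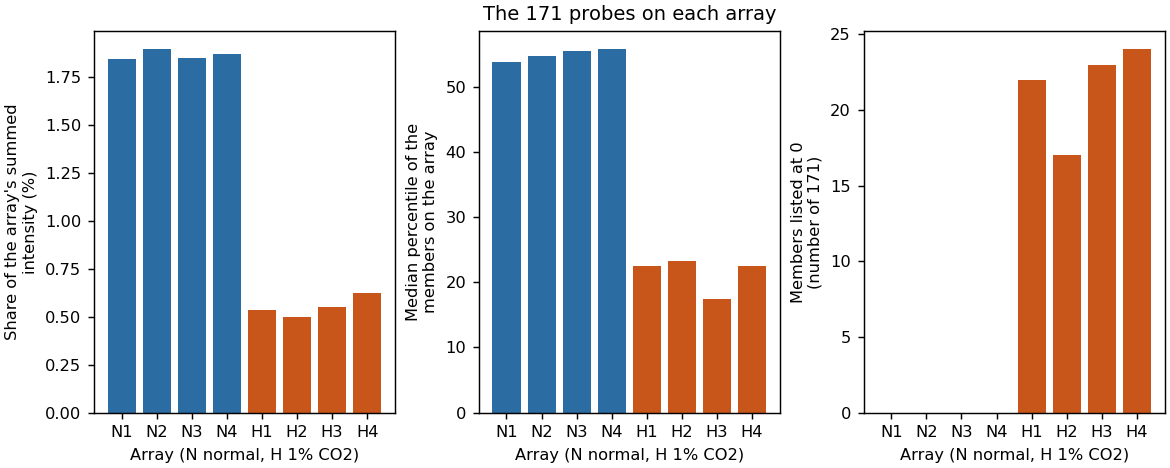
Bars give, for each array (N1 to N4 normal CO2, H1 to H4 at 1% CO2), the share of the summed intensity taken by the 171 members (left), the median percentile of the members on that array (middle) and the number of members listed at 0 (right). The share is 1.85% to 1.89% on the normal CO2 arrays and 0.496% to 0.623% at 1% CO2, and the number at 0 is 17 to 24 at 1% CO2.

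In absolute units the members varied about as much at high as at normal CO2: the median SD over 4 arrays was 0.0485 at high and 0.0429 at normal CO2. Relative to their level they varied far more at high CO2, with a median coefficient of variation of 58.6% against 15.5%. Over all probes these medians were 29.1% and 19.2%. The other probes that met both level criteria had a median SD of 0.0742 at high and 0.0484 at normal CO2. The rule asks for a low mean at high CO2 and for no overlap, which bears on both measures of spread. Nothing is therefore read from these differences. A rule turned the other way, for probes of the same mean level that were higher at high CO2, found 158 probes, and at normal CO2, where these were dim, their median coefficient of variation was 33.9%. Which high CO2 array was the highest differed between members: array 4 in 62, array 3 in 53, array 1 in 30 and array 2 in 26. At normal CO2 this was even, with 36 to 48 members for each array. Over all probes high CO2 arrays 3 and 4 also had the higher medians, 0.287 and 0.292. Those of high CO2 arrays 1 and 2 were 0.238 and 0.234.

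An annotation of the array's probes pairs 692 of the 3439 probes with 1 gene, 870 with several and 1877 with none. Of the members, 32 (18.7%) have 1 gene, close to the share of all probes (20.1%), 46 have several and 93 have none. The 32 genes are described below by what each is known to do. This grouping was made after the genes were seen and makes no statement about a pathway or about the plastid. The share of plastid genes among all probes was not determined.

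Several members encode parts of the machinery that reads and copies genetic information, and more than one of them acts in the chloroplast. AT1G29070 encodes protein L34 of the large plastid ribosomal subunit. It stood at 0.268, 0.4003, 0.239 and 0.282 on the normal CO2 arrays and at 0.0622, 0, 0.212 and 0 on the high CO2 arrays. The groups lay close on 1 array, since high CO2 array 3 came near the lowest normal CO2 value. AT1G64510, which encodes protein S6 of the small plastid subunit, was at 0.305, 0.282, 0.289 and 0.265 at normal CO2 and at 0.134, 0.0119, 0.145 and 0.103 at high CO2, a ratio of the means of 2.90. AT1G08845, a protein of the ribosomal L18p/L5e family, was dimmer, at 0.111 ± 0.0206 (SD, n = 4) at normal CO2 and at 0.0208, 0, 0.0588 and 0 at high CO2.

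AT4G31210 encodes a DNA topoisomerase of type IA, an enzyme that relaxes coiled DNA. Its values were 0.397, 0.235, 0.587 and 0.482 at normal CO2 and 0, 0.0507, 0.0178 and 0.112 at high CO2. The ratio of its means, 9.43, was the largest among the 1-gene members with a high CO2 mean above the 5th percentile of 0.0363. AT5G19210, the chloroplast DEAD-box RNA helicase RH58, was at 0.343 ± 0.0443 (SD, n = 4) at normal CO2, and at 0.0446, 0.0929, 0.265 and 0.0463 at high CO2. High CO2 array 3 stood apart from the other arrays of its group for this gene and came close to the lowest normal CO2 value of 0.282. AT1G79080, a pentatricopeptide repeat protein of the family that binds organelle RNA, had one of the smallest ratios, 2.54. It stood at 0.368 ± 0.0351 (SD, n = 4) against 0.145 ± 0.0441 (SD, n = 4). Quantile normalized, or without array 1 or 2 of either group, it no longer met the rule.

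Another group of members encodes transporters, enzymes and other proteins of the plastid. AT2G46910, a plastid lipid-associated protein of the fibrillin family, was the brightest of the 32 genes: 0.797, 0.764, 1.003 and 0.955 at normal CO2 and 0.201, 0.202, 0.272 and 0.329 at high CO2. Every normal CO2 value was at least 2.33 times every high CO2 value. Another probe, which lists AT2G46910 with other genes, overlapped between the groups, at 0.496 ± 0.123 (SD, n = 4) against 0.365 ± 0.0840 (SD, n = 4). AT2G32040, which encodes a folate carrier of the plastid envelope, stood at 0.456, 0.638, 0.429 and 0.514 at normal CO2 and at 0.153, 0.114, 0.113 and 0.0845 at high CO2, a ratio of 4.39. Its high CO2 arrays were close together, and its lowest normal CO2 value was 2.81 times its highest high CO2 value, the widest gap by ratio of the 32 genes apart from AT1G25500. AT5G59250, a predicted plastid sugar-proton symporter, had the narrowest gap, with values of 0.466, 0.452, 0.263 and 0.192 at normal CO2 against 0.0535, 0.174, 0 and 0.188 at high CO2.

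SRX (AT1G31170) encodes sulfiredoxin, which repairs overoxidised peroxiredoxins in the chloroplast. It was at 0.184, 0.180, 0.261 and 0.204 at normal CO2 and at 0.0531, 0.110, 0.0474 and 0.0707 at high CO2, a ratio of 2.95. AT2G44530 encodes a phosphoribosyl pyrophosphate synthase, which makes the sugar phosphate used to build nucleotides. Its high CO2 values were nearly alike, at 0.0441 ± 0.00465 (SD, n = 4), against 0.153 ± 0.0424 (SD, n = 4) at normal CO2. AT4G37230, a relative of the PsbO protein that stabilises the oxygen-evolving centre of photosystem II, was tight at normal CO2 and scattered at high CO2: 0.389, 0.379, 0.361 and 0.393 against 0.0494, 0.103, 0 and 0.184.

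A kinase and an acetyltransferase were also near the lower edge of the rule. AT2G23070 encodes the plastid catalytic subunit of casein kinase 2 and had a ratio of 2.54, with 0.364, 0.396, 0.435 and 0.580 at normal CO2 and 0.303, 0.212, 0 and 0.184 at high CO2. It no longer met the rule without high CO2 array 3 or normal CO2 array 4, or with arrays scaled to equal medians or quantile normalized. AT2G39000, an acetyltransferase of the GNAT family, had a ratio of 2.52, from 0.318 ± 0.0151 (SD, n = 4) to 0.126 ± 0.0907 (SD, n = 4), and high CO2 array 2 at 0.00692 was its lowest. It no longer met the rule without normal CO2 array 3 or 4 or high CO2 array 1 or 2.

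Among genes that act outside the plastid was GH9B11 (AT2G44560), an endoglucanase of glycosyl hydrolase family 9, enzymes that cut cellulose-like glucans of the cell wall. It stood at 0.486, 0.420, 0.374 and 0.320 at normal CO2 and at 0.253, 0.154, 0.0875 and 0.0705 at high CO2. UGT74D1 (AT2G31750), a glucosyltransferase that joins glucose to auxins, was at 0.142 ± 0.0310 (SD, n = 4) at normal CO2 and at 0.0742, 0.0531, 0 and 0.0453 at high CO2. AT1G25500, a choline transporter-like protein, was listed at 0, 0, 0 and 0.000855 at high CO2 and at 0.160, 0.118, 0.0706 and 0.0693 at normal CO2. It is the member with the lowest high CO2 mean, and with values so near 0 its ratio is not given.

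Putative regulators of transcription, calcium signalling and protein turnover were also present. The C2H2 zinc-finger genes AT2G28200 and AT4G16610 differed in level: the first was at 0.178 ± 0.0494 (SD, n = 4) against 0.0299 ± 0.0280 (SD, n = 4), and the second at 0.633 ± 0.107 (SD, n = 4) against 0.230 ± 0.0596 (SD, n = 4). The calmodulin-binding IQ-domain gene iqd32 (AT1G19870) had normal CO2 values of 0.319, 0.309, 0.353 and 0.311. Its high CO2 values were 0.121, 0.118, 0.148 and 0.00606, with array 4 far below the others. AT4G39570, a kelch-repeat F-box protein, and AT4G16490, a protein with armadillo repeats, had ratios of 3.05 and 2.71.

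The remaining 10 genes are given by locus without a role. AT5G44150 stood at 0.184 ± 0.0718 (SD, n = 4) at normal CO2 and at 0, 0.0583, 0.0598 and 0 at high CO2. Among those with a high CO2 mean above 0.0363, AT5G40050 had the largest ratio, 3.75, with no value at 0. AT1G13970 was the most even of the 32 at normal CO2, at 0.434 ± 0.0105 (SD, n = 4), and stood at 0.0827, 0.0953, 0.112 and 0.229 at high CO2. The other 7, AT2G43990, AT3G52550, AT4G23110, AT2G46190, AT4G33480, AT2G14660 and AT3G02030, had ratios of 2.57 to 3.30 and normal CO2 means of 0.126 to 0.433. AT3G02030, at 2.57, no longer met the rule when quantile normalized, or without normal CO2 array 2 or high CO2 array 2 or 3. The rule was also missed at least once, under another scaling or without 1 array, by AT1G25500, AT2G14660, AT4G33480, AT4G16490 and AT1G64510. The same held for AT5G59250, AT2G43990, AT3G52550, GH9B11 and UGT74D1. Of the 32 genes, 18 met it each time.

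**Figure D3:**
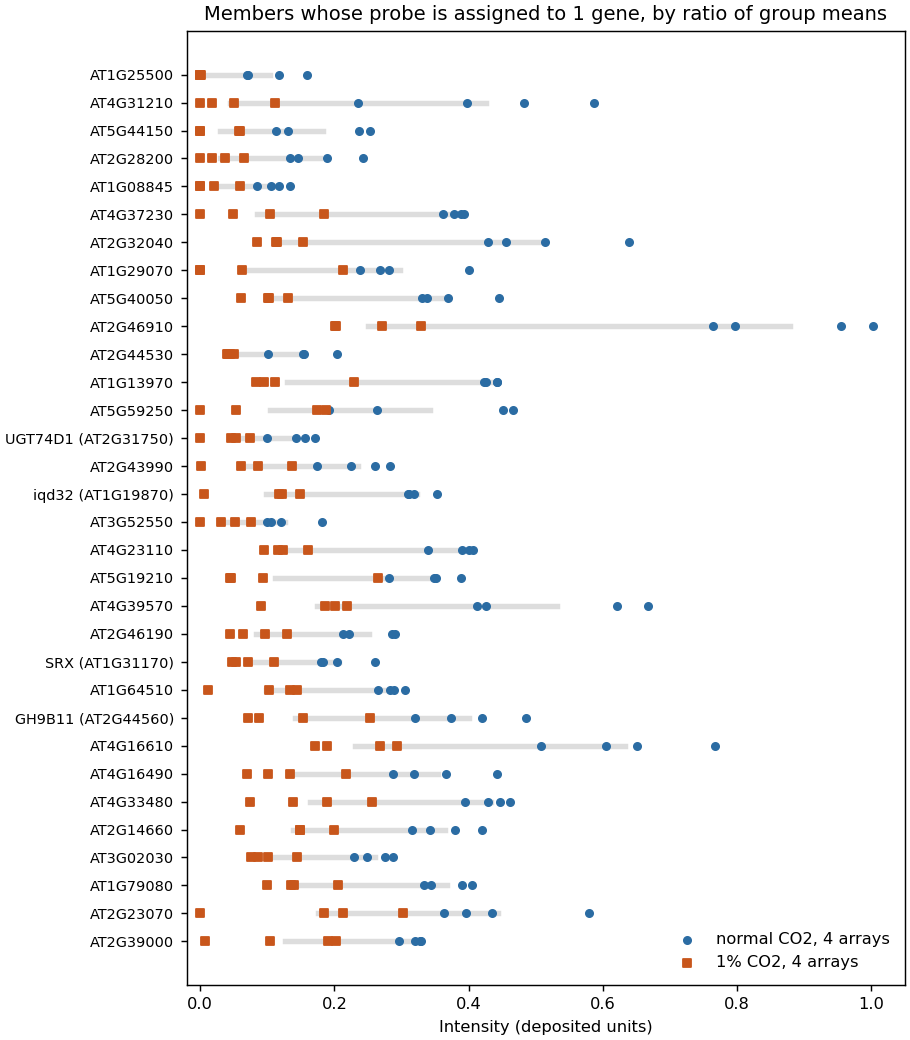
Intensity in deposited units of the 32 members whose probe is assigned to 1 gene, ordered by the ratio of the group means, with the 4 normal CO2 arrays as blue circles and the 4 arrays at 1% CO2 as orange squares, and a grey bar between the group means. Blue and orange do not overlap in any row, as the rule requires, and the gap is narrowest for AT5G59250 and widest in deposited units for AT2G46910.

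Probes that list several genes cannot be assigned to one of them, but where all genes on the list encode the same enzyme the family can be stated. The probe that lists both glutathione reductase genes was even in both groups. It stood at 0.413, 0.423, 0.440 and 0.443 at normal CO2 against 0.166, 0.161, 0.191 and 0.167 at high CO2. Its ratio, 2.52, was near the lower edge of the rule. It met the rule in 5 of 11 settings, which were other scalings or left out 1 array. The probe of both adenylosuccinate lyase genes, enzymes of purine synthesis, stood at 0.268, 0.271, 0.177 and 0.159 against 0, 0, 0.0345 and 0.0386. A probe of both FtsZ2 genes, which build the plastid division ring, was at 0.258 ± 0.0285 (SD, n = 4) against 0.0543 ± 0.0499 (SD, n = 4). Members of this kind also included probes for dihydrodipicolinate reductase (lysine synthesis, ratio 4.41), imidazoleglycerol-phosphate dehydratase (histidine synthesis, 3.69) and EPSP synthase (aromatic amino acids, 2.53). The EPSP synthase probe met the rule in 8 of the 11 settings. A brighter probe for the same histidine genes was not called, at 0.614 ± 0.106 (SD, n = 4) against 0.459 ± 0.183 (SD, n = 4). Its log2 difference was -0.52 (SE 0.31, limma, adjusted p = 0.198). Another probe for the dihydrodipicolinate reductase genes was near 0 in both groups.

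Endoglucanases of family 9 were listed by 5 member probes, GH9B11 alone and 4 probes with several GH9B genes each. The brightest of the latter stood at 0.955, 0.875, 0.803 and 0.751 at normal CO2 and at 0.211, 0.228, 0.277 and 0.228 at high CO2. Of the others, 2 had ratios of 2.84 and 3.79, and the last had 2 values at 0 at high CO2. In all 11 probes of the array list a family 9 gene, a set picked after the names were seen. The rule fixed the direction of the 5 members. Of the 6 others 4 had a lower mean at high CO2, beside 52.4% of all probes. GH9B16 was at 0.261 ± 0.0966 (SD, n = 4) and 0.127 ± 0.0781 (SD, n = 4), a log2 change (high over normal CO2) of -1.14 (SE 0.41, limma, adjusted p = 0.042), and was the one of the 6 that passed as lower. GH9B12 had a log2 change of -1.55 (SE 0.71, limma, adjusted p = 0.0997), GH9B8 one of 0.11 (SE 0.33, limma, adjusted p = 0.81), and a probe for a pair of GH9C genes was higher, by 1.69 on the log2 scale (SE 0.49, limma, adjusted p = 0.016). The remaining pair was lower without passing: a probe for GH9B14 and GH9B15 had a log2 difference of -0.90 (SE 0.34, limma, adjusted p = 0.051), and a probe for GH9B17, GH9B18 and another locus one of -1.32 (SE 0.52, limma, adjusted p = 0.062). Several of the 11 probes list the same genes, and 3 member probes (numbers 1466, 1478 and 1490) lie 12 numbers apart. Whether they measure the family independently was not tested.

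A fit across the whole table (limma on log2 values, with 0 as missing) gives the background for such calls. Of the 3157 probes with enough values above 0, 749 (23.7%) passed an adjusted p of 0.05 as lower at high CO2 and 614 (19.4%) as higher, and the median log2 change was -0.14. Of the 171 members 149 could be tested and 22 had too many values at 0. Those called lower numbered 142 (against the 23.7% of all probes), a count that the rule fixes in large part since it used the same contrast, and nothing is read from it. Of the 32 1-gene members, 28 were tested and 27 called, AT2G43990 being the exception.

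Other probes that list a gene of a member probe, 27 in all, offer a measurement the rule did not choose. Their high CO2 mean was below the normal CO2 mean in 16 and above it in 11, beside 52.4% of all probes with the lower mean, and the median ratio was 1.34, from 0.231 to 3.08. Of the 25 that could be tested, 6 were called lower, 3 higher and 16 neither (limma). The shares of all probes called lower (23.7%) and higher (19.4%) stand beside these, so the other probes of the same genes were called lower about as often as any probe. Probes that met the rule are left out of the 27 by definition, which favours smaller ratios.

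Single genes differed in this respect. A probe that lists AT5G19210 with other helicase genes was lower, at 1.74 ± 0.193 (SD, n = 4) against 0.978 ± 0.421 (SD, n = 4), a log2 difference of -1.02 (SE 0.22, limma, adjusted p = 0.0032). A probe that lists AT1G08845 with other genes went the opposite way, at 1.79 ± 0.373 (SD, n = 4) against 4.56 ± 0.232 (SD, n = 4), so that high CO2 was higher by 1.22 on the log2 scale (SE 0.15, limma, adjusted p = 8.4e-05). The second adenylosuccinate lyase probe stood at 0.524 ± 0.0888 (SD, n = 4) and 0.520 ± 0.148 (SD, n = 4), a log2 difference of -0.026 (SE 0.22, limma, adjusted p = 0.94), while the high CO2 values of the member probe for the same genes were at or near 0. The probe that lists AT2G46910 with other genes was not called, with a log2 difference of -0.43 (SE 0.23, limma, adjusted p = 0.151). Which of the probes follows a given gene was not tested. AT1G13970 is also listed by a second probe that is itself a member, at 0.129 ± 0.0271 (SD, n = 4) and 0.0260 ± 0.0197 (SD, n = 4), whose direction the rule fixed.

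**Figure D4:**
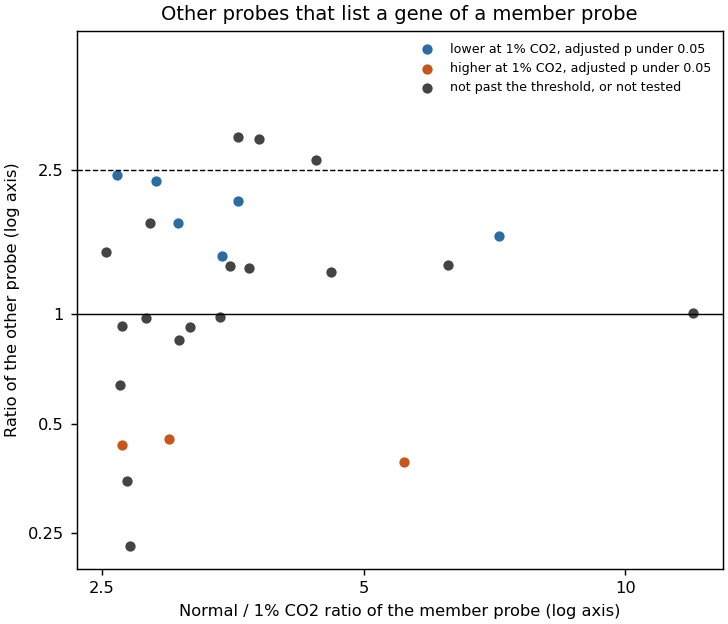
Each point pairs a member probe (x axis, its normal over 1% CO2 ratio) with another probe that lists one of its genes (y axis, the same ratio), on log axes, coloured by the limma call of the other probe. The 27 other probes scatter around the solid line of equal means, with a median ratio of 1.34.

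The rule was also applied to one pair of arrays per group, by replicate number, and its probes were read in the other pair, which that choice did not use. On arrays 1 and 2 the rule found 325 probes, 137 of them among the 171, with a median ratio of 3.47 there. In arrays 3 and 4 their median ratio was 1.79, and 101 (31.1%) still reached a ratio of 2.5, against 10.4% of all probes. The high CO2 mean was below the normal CO2 mean in 266 (81.8%, all probes 46.5%), and 219 (67.4%, all probes 33.1%) showed no overlap.

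Chosen on arrays 3 and 4, 203 probes were found, 119 of them among the 171, with a median ratio of 3.48. In arrays 1 and 2 their median ratio was 2.38, and 95 (46.8%) reached 2.5, against 14.6% of all probes. There 196 (96.6%, all probes 59.3%) had the lower mean at high CO2 and 176 (86.7%, all probes 44.3%) did not overlap. The direction recurred in most chosen probes in the arrays that had not chosen them, and the size was smaller in both readings. Arrays of a group may not come from separate plants, so the pair read may not be independent of the pair used to choose. Scaled to equal array medians, the ratios read were 2.26 in arrays 3 and 4 and 2.03 in arrays 1 and 2. These values are given as a description and no test was run on 2 arrays against 2. All 3439 probes, unlike those chosen, include the brightest.

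**Figure D5:**
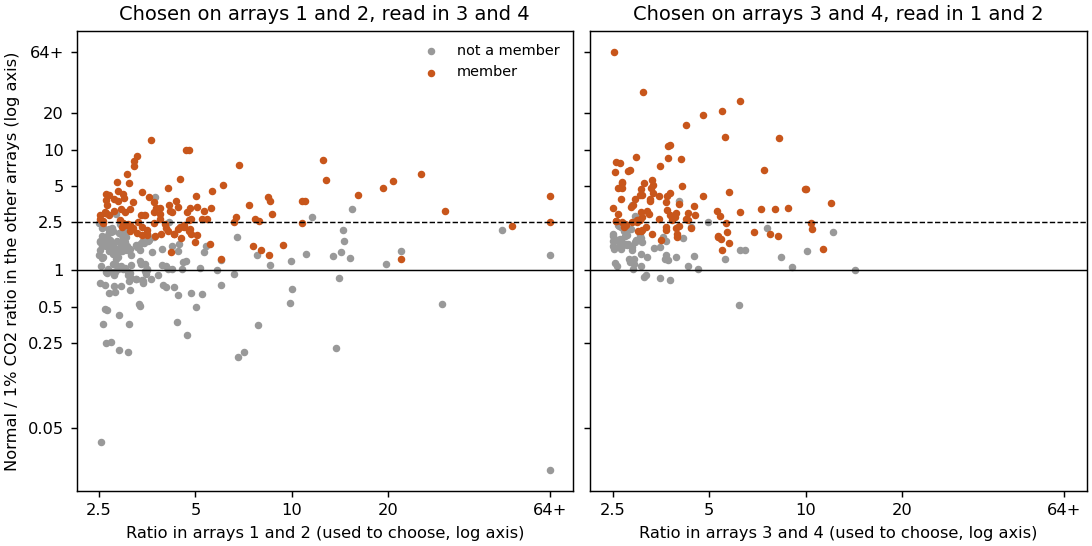
Probes chosen by the rule on arrays 1 and 2 of each group (left) or 3 and 4 (right), with the normal over 1% CO2 ratio there (x axis) against the ratio in the other arrays (y axis), log axes with values above 64 drawn at 64 and probes with a mean of 0 left out. Orange points are members, which were chosen on all arrays. Most points lie above the solid line of equal means, and many of those lie below the dashed line at 2.5, with median read ratios of 1.79 and 2.38.

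The rule did not use the probe number, which stands for an unknown place on the array. Members made up 4.97% of all probes, and 3.57% to 6.47% in each of 6 equal spans of numbers. Where the probe 1 number higher was measured, it was a member too in 13 of 137 cases (9.49%). This share was 9.52% at a distance of 6, 13.1% at 12, and 5.67% and 6.30% at both larger distances tried. The rule turned the other way took 4.59% of all probes. Among these the share was 5.13% at a distance of 1 (6 of 117 cases), 9.38% at 6 and 8.80% at 12. It was 6.90% and 11.8% at the larger distances. Among the members the shares at distances of 1, 6 and 12 were above those at the larger distances. In the other set the share at 1 was near its background, and the highest was at the largest distance. Among the 602 pairs of annotated probes 12 numbers apart, 3 shared a listed gene. Whether position on the array had a part in the members' values was not tested.

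Of the members without a gene, the brightest of all members was probe 51, at 0.773, 0.969, 1.002 and 1.58 at normal CO2 and at 0.110, 0.176, 0.267 and 0.240 at high CO2. Its normal CO2 array 4 stood well above the others. The largest ratio among the 112 members with every value above 0, 6.81, was that of probe 3154, at 0.254 ± 0.0827 (SD, n = 4) and 0.0373 ± 0.0158 (SD, n = 4). The 93 members with no gene and the 32 with 1 gene were alike in ratio, with medians of 3.30 and 3.24.

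Photosynthetic and photorespiratory genes listed for comparison were absent from the members and hardly represented among the 1-gene probes. None of the 16 photorespiration genes, of the carbonic anhydrase pair or of the root markers had a probe of its own. Of 10 Calvin cycle genes 2 had one. SBPASE, sedoheptulose-bisphosphatase, was lower at high CO2, at 0.837 ± 0.0955 (SD, n = 4) and 0.574 ± 0.136 (SD, n = 4), a log2 difference of -0.56 (SE 0.16, limma, adjusted p = 0.016). PRK, phosphoribulokinase, was at 1.88 ± 0.260 (SD, n = 4) and 2.15 ± 0.209 (SD, n = 4), a log2 difference of 0.031 (SE 0.15, limma, adjusted p = 0.88) whose sign turned with array weights and without some single arrays. Light-harvesting probes of photosystem II went both ways. LHB1B2, the only one of 13 such genes with a probe of its own, was higher at high CO2, at 2.21 ± 0.249 (SD, n = 4) and 6.32 ± 0.820 (SD, n = 4), a log2 difference of 1.34 (SE 0.14, limma, adjusted p = 2.1e-05). A probe that lists all of LHCB4.1, LHCB4.2 and LHCB4.3 was lower, at 3.37 ± 0.428 (SD, n = 4) and 1.99 ± 0.328 (SD, n = 4), a log2 difference of -0.95 (SE 0.12, limma, adjusted p = 7.0e-05). Both probes that list RCA, Rubisco activase, together with AT1G73110 missed the threshold, at log2 differences of 0.20 (SE 0.19, limma, adjusted p = 0.42) and -0.69 (SE 0.26, limma, adjusted p = 0.052).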

How the data were processed

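The authors deposited 1 table of linear intensities for 3439 probes on 8 arrays. The sources used here do not give how the authors scaled the intensities and removed background, or what 0 means; deposited values ran from 0 to 100. The members and gene lists were chosen with earlier results of these data known. Groups and replicate numbers came from sample titles. Member values are intensities as deposited, with zeros kept. Probe names came from GEO's platform annotation, updated through RefSeq (TAIR10.1). No sequences were available. All 32 members with 1 gene are named, with probes 51 and 3154 as the brightest member and the one of largest ratio without a 0. The fit over all probes took log2 intensities, 0 as missing, quantile-normalized, of the 3157 probes with 3 or more values above 0 in both groups (limma 3.58.1, R 4.3.3, eBayes with trend, two-sided, Benjamini-Hochberg), and was tested on simulated data. Other scalings, thresholds, filters, blocks and leaving out each array were tried. The number of arrays limits the precision.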

Additional observations from a re-analysis of the deposited data

Results flagged for a closer look

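In 68 checks of the 32 genes and of 2 summary values in each group, 1 array lay far from the other 3 by Dixon's criterion. For AT1G25500 at high CO2 the gap to the nearest array made up the whole range (a value of 1), because arrays 1, 2 and 3 were listed at 0 and array 4 at 0.000855. About 1 in 20 such checks is reached by chance.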

How the results depend on the processing

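The rule found 171 probes (4.97% of all), and 132 to 200 under other scalings, level limits or with overlap allowed. With a ratio of at least 2 it found 8.37% of all probes, and with at least 3 it found 2.995%. Without 1 array in turn it found 4.89% to 6.16% (168 to 212 probes), with a median ratio of 3.22 to 3.36 and a summed share of 1.74% to 2.25% at normal and 0.513% to 0.647% at high CO2. Under 3 scalings and 8 such omissions 96 of the 171 members, and 18 of the 32 genes, met the rule each time. The median ratio of 3.30 was 2.61 with a pseudocount of 0.0363, which shrinks ratios of dim probes by construction. Quantile normalization gave a summed share of 1.81% at normal CO2. In arrays 3 and 4 the ratio read rose from 1.79 to 2.26 with equal array medians, and in arrays 1 and 2 it went from 2.38 to 2.03; high CO2 arrays 3 and 4 had the higher medians as deposited. Members called by limma numbered 142, 110 to 161 under other settings, and 113 to 132 without 1 array; probes called numbered 1363, and 1049 to 1411, and 1158 to 1294. Arrays with the same replicate number were not treated as paired, and the replicate block gave 138 members and 1348 probes. Deviations of same-numbered arrays correlated at -0.026 to 0.10, with 1 of 4 high CO2 arrays closest to its own number. With 4 arrays per group these values cannot show that the arrays were unpaired. PRK stood at -0.012 with array weights and ranged from -0.071 to 0.11 without 1 array in turn (-0.071 without normal CO2 array 1, -0.0046 and -0.039 without high CO2 arrays 1 and 2), with no call in any setting. The sources used here do not give signal over background.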
